A study of Mus musculus with 4 samples.

Results

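The 9 genes described here make and move the acylceramides and related lipids of the skin barrier and of meibum, the oil of the eyelid glands. They are Cyp4f39, Cers3, Pnpla1, Abca12, Aloxe3, Alox12b, Alox8, Ugcg and Smpd1, chosen by name for their roles in omega-hydroxylation, acylceramide synthesis, transport and lipid oxidation. Earlier results of these data were known when they were chosen. All 9 were found among the 15816 genes listed in at least 1 library, and all 9 were listed in every library. The libraries were made from lower eyelids of C57BL/6 mice, a common inbred strain, labelled as wild type (WT), and no further allele or treatment is named. There were 4 groups with 1 library each, namely males and females aged 3 months, here called young, and males and females aged 2 years, called old. A value given for young males, for instance, is that of their 1 library. How many animals went into a library is not stated in the labels. With 1 library per group, differences between groups have no replicate check, and the values below describe these libraries.

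The outer epidermis is sealed by stacked lipid sheets in which ceramides with very long, omega-hydroxylated acyl chains are the essential part. A fatty acid is lengthened by elongases, hydroxylated at its far end by a cytochrome P450 (CYP4F39 in the mouse), joined to a sphingoid base by ceramide synthase CERS3, and acylated with linoleate by PNPLA1. ABCA12 loads the glucosylated product, which UGCG starts, into lamellar granules, and the lipoxygenases ALOX12B and ALOXE3 then oxidise the linoleate before the lipid is bound to the corneocyte. The meibomian gland, a modified sebaceous gland of the lid, uses omega-hydroxylation as well, for the amphiphilic fatty acid esters of its oil. Loss of several of these genes causes ichthyosis in humans.

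Each library mixes the RNA of glands, epidermis, conjunctiva, muscle and dermis, so fewer cells of a type and less RNA per cell cannot be told apart. All 10 meibocyte markers (sebum-making cells of the gland), all 7 conjunctival markers and all 6 muscle markers were listed in every library. So were 10 of 11 epidermal differentiation markers, the exception being Flg. Since 14281 of the 15816 genes were listed in every library, such listing is no test of the lid label. Marker levels differed between the libraries. For the meibocyte markers the young female library was the lowest and the old female the highest. For the epidermal differentiation markers the old female was the lowest. The summed level of the meibocyte markers was 3521 RPKM in young females, 8388 in young males, 6154 in old males and 11795.5 in old females. That of the epidermal differentiation markers was 1998, 1871, 1329 and 369.9 RPKM in the same order. RPKM scales reads by gene length and library size, so levels can be compared between genes. Markers of other tissues differed with age as well. Summed skeletal muscle markers were 6.03-fold higher in old than young females and 2.75-fold higher in old than young males, and fibroblast markers 7.78-fold and 2.50-fold. Endothelial markers, at 0.808 to 6.83 RPKM in sum, were 8.45-fold and 1.88-fold higher, and leukocyte markers 1.07-fold higher and 1.35-fold lower. The part of this mix in the values of the 9 genes was not tested. Total base coverage was 3.16 to 3.91 gigabases per library, with the old female library the lowest.

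Stretches upstream of the start of the genes furthest apart with age are given first, because these genes had the most unequal ratios and the stretches let their sequence be compared. They come from RefSeq on build GRCm38.p6, the coordinates of mm10, read on the strand of the gene, and they end before the first annotated transcribed base. Cyp4f39 and Abca12 had the highest ratios of old to young females, Smpd1 the next, and Alox12b the lowest. The stretches lie at chr17:32452473-32452722 (plus strand) for Cyp4f39, chr1:71414911-71415160 (minus strand) for Abca12, chr7:105554110-105554359 (plus strand) for Smpd1 and chr11:69156822-69156988 (plus strand) for Alox12b. Capitals mark matches, on either strand, to the GC box GGGCGG bound by SP and KLF factors and to AGGTCA, the core element of nuclear receptors.
Cyp4f39: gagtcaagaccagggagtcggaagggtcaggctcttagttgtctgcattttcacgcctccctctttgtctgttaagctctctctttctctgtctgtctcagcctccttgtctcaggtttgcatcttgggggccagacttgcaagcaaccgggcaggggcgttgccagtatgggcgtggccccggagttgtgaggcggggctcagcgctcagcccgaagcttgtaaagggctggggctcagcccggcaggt
Abca12: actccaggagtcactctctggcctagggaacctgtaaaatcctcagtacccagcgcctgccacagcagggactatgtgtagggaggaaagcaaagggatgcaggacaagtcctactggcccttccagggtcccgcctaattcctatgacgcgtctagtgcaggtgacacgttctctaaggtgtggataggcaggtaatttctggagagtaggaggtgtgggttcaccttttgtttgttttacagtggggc
Smpd1: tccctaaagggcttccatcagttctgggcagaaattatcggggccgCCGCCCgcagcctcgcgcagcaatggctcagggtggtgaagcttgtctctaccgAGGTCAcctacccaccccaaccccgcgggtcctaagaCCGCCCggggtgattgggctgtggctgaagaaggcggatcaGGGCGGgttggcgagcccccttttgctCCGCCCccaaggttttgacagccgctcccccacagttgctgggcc
Alox12b: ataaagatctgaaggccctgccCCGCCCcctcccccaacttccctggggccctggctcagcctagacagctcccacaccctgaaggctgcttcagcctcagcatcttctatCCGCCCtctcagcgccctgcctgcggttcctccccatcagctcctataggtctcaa
RefSeq windows of 300 bases, from 250 before to 50 after the start, were at hand for 8 of the 9 genes, all but Aloxe3. The GC box was found in 4 of the 8 windows (Alox12b, Alox8, Ugcg and Smpd1) and in 35.7% of 32851 promoter windows. AGGTCA was found in 2 of the 8 (Cers3 and Smpd1) and in 16.3% of all windows. The AP-1 motif TGANTCA, at 7.81% of all windows, and the GRHL motif ACCGGTT, at 1.02%, were in none of the 8. No 2 of these motifs overlapped in the printed stretches, and a match is only a run of letters.

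The levels of the 9 genes spanned more than the differences between libraries. Cyp4f39 was the highest of the 9 in every library, Smpd1 was next and Cers3 came after it. Cyp4f39 ranked from place 100 to place 480 among the genes listed, while Smpd1 ranked from 804 to 1597 and Cers3 from 1766 to 2631. The other 6 genes lay between 2.12 and 15.1 RPKM, apart from Alox12b in the old female library. Their order changed from library to library, and with 1 library per group it has no error.

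**Figure D1:**
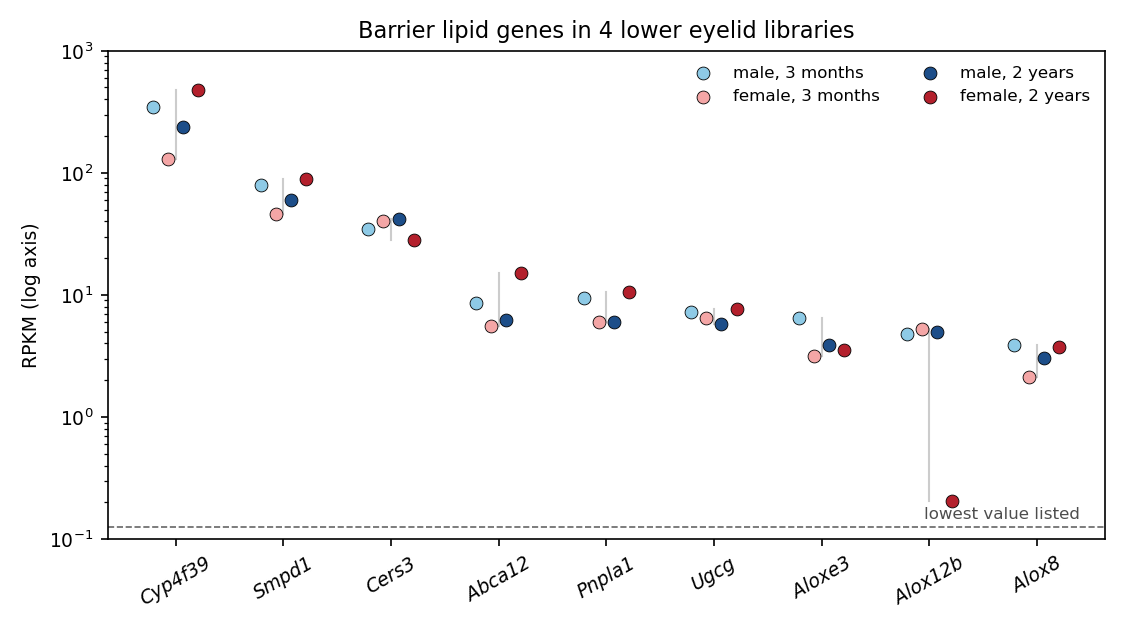
RPKM of the 9 barrier lipid genes in the 4 lower eyelid libraries, on a log axis, with 1 point per library and genes ordered by their mean. The old female point of Alox12b, at 0.206 RPKM, lies just above the lowest value listed in the tables (dashed line), and its other 3 points lie between 4.75 and 5.28.

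In females, the genes of hydroxylation and granule loading were higher at 2 years, and the lipoxygenase gene Alox12b was nearly absent. Cyp4f39, the omega-hydroxylase, was 3.67-fold higher in the old than in the young female library, Abca12, the lipid transporter of lamellar granules, 2.73-fold higher, and Alox12b 25.7-fold lower. Changes are also given on the log2(RPKM + 1) scale, which understates those of low genes. On this scale 7 of the 9 genes were higher and 2 lower, with a median ratio of 0.61, against 0.08 over the 12073 genes listed in every library with a mean of at least 1 RPKM. At least 2-fold apart were 2 genes upward (22.2% of the 9) and 1 downward (11.1%). The background over all analysed genes was 5.3% past 2-fold upward and 3.31% downward.

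In males, no gene of the 9 was 2-fold apart with age, where the background was 0.795% higher and 0.207% lower. The median log2 ratio was -0.40, against -0.01 over all analysed genes, with 7 genes lower and 2 higher in the old library. The 7 genes higher in old females were those lower in old males, with Aloxe3 so placed in females only at 0.12, which turned to -0.02 under quantile normalization. Cers3 and Alox12b had the reverse signs. All 9 genes thus had opposite signs in the sexes, as had 61.6% of the analysed genes. The female and male comparisons share no library, but whether the age ratios differ between the sexes could not be tested.

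**Figure D2:**
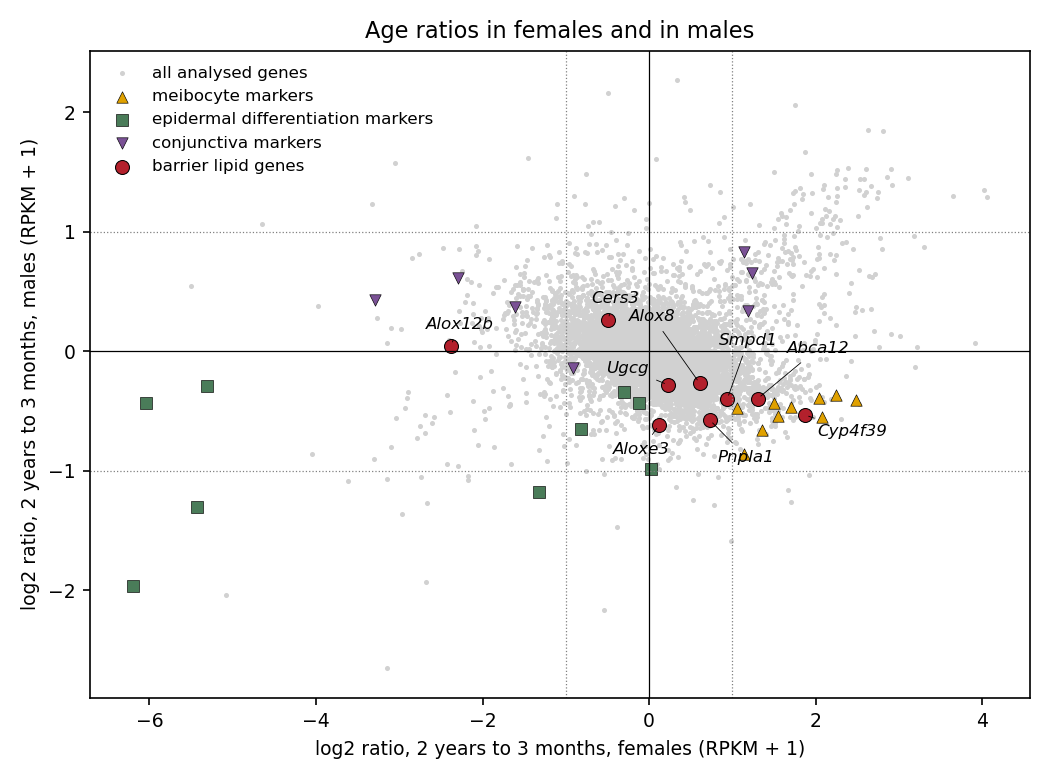
Log2 ratio of 2 years to 3 months in females (x axis) and in males (y axis), on RPKM + 1, for each of 12073 analysed genes (grey), the 9 barrier lipid genes (red circles) and marker genes of meibocytes, epidermal differentiation and conjunctiva. Cyp4f39 and Abca12 lie with the meibocyte markers on the lower right, and Alox12b lies far to the left at -2.38 and 0.05.

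Cyp4f39 lies on chromosome 17 from 32452723 to 32493320 (mm10, plus strand, protein-coding, as are all 9). It had 345.4 RPKM in young males, 130.1 in young females, 238.6 in old males and 477.5 in old females. The young female library was the lowest and the old female the highest, with both male libraries between them. Its log2 ratio of old to young was 1.87 in females and -0.53 in males. The young males were 2.65-fold above the young females, and the old males 2.00-fold below the old females. Relative to the summed meibocyte markers, a denominator chosen here and below after the data were seen, the gene was nearly level. For every 1000 RPKM of their sum, Cyp4f39 had 41.2 RPKM in young males, 37.0 in young females, 38.8 in old males and 40.5 in old females. The highest was 1.11-fold above the lowest. Scd1 carries much of this sum, with 1493 RPKM in young and 6123 in old females. Single meibocyte markers were from 2.08-fold (Awat2) to 5.70-fold (Soat1) higher in old females, against 3.67-fold for Cyp4f39, so the level ratio holds for the sum only. Relative to the epidermal differentiation markers the ratio of the old to the young female library was 19.8. The 3 genes with the most similar profile, by Euclidean distance of centred log2 values over the 4 libraries, were Panx3 (0.13), Scd1 (0.16) and Scd3 (0.16). Scd1, a meibocyte marker, is a stearoyl-CoA desaturase, Scd3 is another, and Panx3 is a pannexin channel protein.

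Smpd1, on chromosome 7 from 105554360 to 105558389 (plus strand), encodes acid sphingomyelinase, which releases ceramide from sphingomyelin. It had 79.0 RPKM in young males, 45.8 in young females, 59.7 in old males and 88.7 in old females. The libraries stood in the same order as for Cyp4f39, over a smaller range. The log2 ratio of old to young was 0.94 in females, a 1.94-fold difference in RPKM, and -0.40 in males. Per 1000 RPKM of meibocyte markers it had 13.0 in young and 7.52 in old females, a 1.73-fold lower ratio. Its closest profiles were Scd2 (distance 0.04), a further desaturase, Mocos (0.05), a molybdenum cofactor sulfurase, and Litaf (0.05).

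Abca12, on chromosome 1 from 71243090 to 71414910 (minus strand), had 8.57 RPKM in young males, 5.54 in young females, 6.27 in old males and 15.1 in old females. The old female library stood well above the other 3. The log2 ratios of old to young were 1.30 in females and -0.40 in males. The authors' deposited table for females lists Abca12 at 2.73-fold, from these same RPKM values, with a p-value of 2.66e-13 whose replicate basis is not given. Per 1000 RPKM of meibocyte markers Abca12 had 1.02 in both male libraries, 1.57 in the young female and 1.28 in the old female. Its closest profiles were Adm, which encodes the peptide adrenomedullin (distance 0.04), Tenm4 (0.10), a teneurin, and Secisbp2l (0.11).

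Pnpla1, the transacylase that adds linoleate, lies on chromosome 17 from 28858411 to 28890308 (plus strand). It had 9.47 RPKM in young males, 6.01 in young females, 6.03 in old males and 10.6 in old females. The young male and old female libraries were high, and the other 2 were close to each other. The log2 ratios were 0.73 in females and -0.57 in males. The antisense gene Pnpla1os covers 13.3% of its annotated exon bases, and the sources used here do not state a strand setting for the counting. Whether reads from either strand were told apart there is therefore unknown. Its closest profiles were 6330416G13Rik (distance 0.04), Acot6 (0.06), an acyl-CoA thioesterase, and Ptk6 (0.06), an epithelial tyrosine kinase.

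Ugcg, the glucosylceramide synthase, lies on chromosome 4 from 59189550 to 59222833 (plus strand) and was the gene with the smallest range. It had 7.22 RPKM in young males, 6.41 in young females, 5.76 in old males and 7.70 in old females. The highest value was 1.34-fold above the lowest. Log2 ratios were 0.23 in females and -0.28 in males. The transporter and the enzyme ahead of it therefore differed unequally, with an Abca12 level of 0.86 times that of Ugcg in young females and 1.97 times in old ones. In the males the quotient was 1.19 at 3 months and 1.09 at 2 years. Its closest profiles were Mitf, Rapgef5 and Edaradd, all at a distance of 0.01 to 0.02.

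Cers3, the ceramide synthase for the longest acyl chains, lies on chromosome 7 from 66743504 to 66823692 (plus strand). It had 34.9 RPKM in young males, 40.5 in young females, 42.0 in old males and 28.4 in old females. The old female library was the lowest, and the other 3 lay close together. Log2 ratios were -0.50 in females and 0.26 in males, with signs the reverse of those of Cyp4f39, which acts earlier in the pathway. The level of Cyp4f39 was 3.21 times that of Cers3 in young females, 9.91 times in young males, 5.68 times in old males and 16.8 times in old females. Centred profiles of Cers3 lay nearest to the mean of the conjunctival markers (distance 0.17) and of the basal epidermal markers (0.25), against 1.66 for the meibocyte markers. The conjunctival mean averages markers that went both ways with age in females, 3 higher and 4 lower. Their log2 ratios ran from -3.29 (Krt13) to 1.24 (Tff1), so the distance holds for the mean only. The summed basal markers reached 14318.5 RPKM in young and 5712 in old females, and the conjunctival markers 7400.2 and 1978. The conjunctival sum is carried by the keratins Krt13 (3842 and 392.3 RPKM), Krt4 (2390.4 and 486.3) and Krt19 (672.0 and 219.0), while Muc5ac (200.1 and 456.7), Tff1 (134.7 and 319.5) and Spdef (10.2 and 23.7), genes of mucus-making goblet cells, were more than 2-fold higher in old females. Their part in the Cers3 values was not tested. Its closest single genes were Rac3, a small GTPase, at 0.01, Plscr4, a scramblase family member, at 0.02, and Ces2g, a carboxylesterase, at 0.03.

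**Figure D3:**
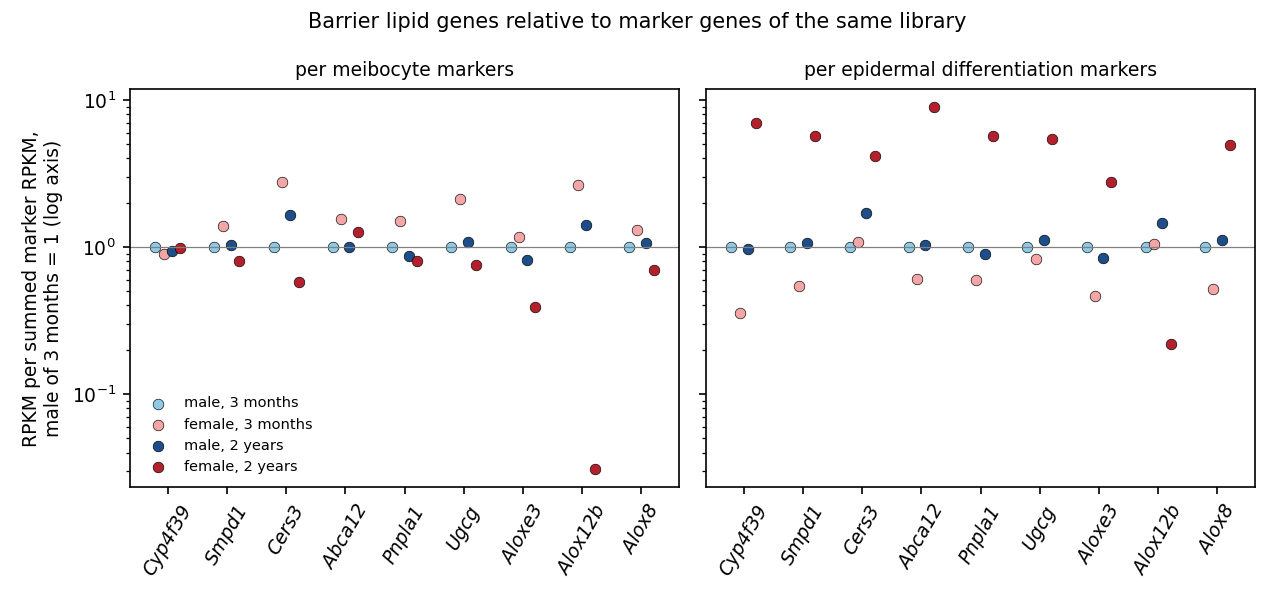
RPKM of each gene divided by the summed RPKM of the meibocyte markers (left) or the epidermal differentiation markers (right) of the same library, scaled so that the young male library is 1, on a log axis. Cyp4f39 stays within a 1.11-fold range per summed meibocyte markers, a denominator chosen after the data were seen, while Alox12b spans 86.1-fold. Per epidermal differentiation markers the old female library is highest for 8 genes and lowest for Alox12b.

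The 3 lipoxygenase genes are neighbours on chromosome 11 within 71.5 kb, and their profiles differed. Aloxe3 lies from 69126377 to 69149115 and Alox12b from 69157072 to 69169791, both on the plus strand with 7.96 kb between them. Alox8 follows after 14.1 kb, from 69183885 to 69197843, on the minus strand. Alox12b encodes the R-specific lipoxygenase of the epidermis, Aloxe3 the isomerase that converts its product, and Alox8 a mouse lipoxygenase whose human counterpart is ALOX15B.

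Alox12b had 4.75 RPKM in young males, 5.28 in young females, 4.94 in old males and 0.206 in old females. The first 3 of these differed by at most 1.11-fold, and the old female library alone was low. The base coverage behind these values was 47369, 51753, 50504 and 1700 bases. The last is a small amount, so the 25.7-fold ratio in females rests on few reads, and the log2(RPKM + 1) ratio was -2.38. The authors' deposited table for females gives the same gene as 25.7-fold lower, computed from these same RPKM values. Its p-value, 7.66e-15, likewise has no stated replicate basis. In males the log2 ratio was 0.05. Among the old libraries males were 24.0-fold above females in RPKM (log2 ratio 2.30), and among the young the log2 ratio of male to female was -0.13.

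Genes of keratinocyte differentiation were also low in the old female library. Krt10, a keratin of differentiating epidermis, had 732.4 RPKM in young females and 17.5 in old ones, and Lor, which encodes loricrin, 172.6 and 3.02. In males Lor was at 164.0 and 65.8 RPKM, where Alox12b was level. The summed epidermal differentiation markers were 5.40-fold lower in the old female library, with Ivl (0.02), Dsc1 (-0.12) and Cdsn (-0.30) close to level on the log2 scale. Alox12b was 4.76-fold lower per unit of this sum, and 9.65-fold lower per unit of Krt5, a basal keratin with 4112 and 1544 RPKM. The part of these cells in the Alox12b values was not tested. Its closest profiles were the protease gene Tmprss11a (distance 0.36), Il1f8 (0.37), an interleukin-1 family gene, and Krt4 (0.43), a keratin of mucosal surfaces. These distances were larger than the nearest one of any of the other 8 genes.

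Aloxe3 had 6.47 RPKM in young males, 3.18 in young females, 3.87 in old males and 3.54 in old females. The young male library was the highest, and the other 3 lay together. Log2 ratios of old to young were 0.12 in females and -0.62 in males, the lowest male ratio among the 9 genes. The level of Aloxe3 was 0.60 times that of Alox12b in young females, 1.36 times in young males, 0.78 times in old males and 17.2 times in old females. Its closest profile was Lipm (0.08), a lipase of the epidermis, followed by Elovl7 (0.10), a fatty acid elongase, and Gm5460 (0.11).

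Alox8 had 3.85 RPKM in young males, 2.12 in young females, 3.03 in old males and 3.75 in old females. The young female library was the lowest, as for Cyp4f39, Smpd1, Abca12, Pnpla1 and Aloxe3, and the log2 ratios were 0.61 in females and -0.27 in males. The profile of Alox8 lay closer to those of Smpd1 (distance 0.27) and Pnpla1 (0.36) than to that of its neighbour Alox12b (2.30). Profiles close to it outside the 9 included those of Ppifos (0.02) and Zswim7 (0.05).

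Sequence shared with other genes was small for all but Pnpla1. None of the stretches of 50 bases in the longest annotated transcripts of Alox12b, Cyp4f39, Cers3, Ugcg and Smpd1 occurs in a transcript of another gene. The share was 2.05% for Alox8, 0.539% for Aloxe3 and 0.154% for Abca12. For Pnpla1 it was 14.5%, and the gene sharing most was Pnpla1os. Of 12 protein-coding genes within 100 kb of the cluster, 8 were analysed, and 5 of these were not lipoxygenases (a window chosen after the values were seen). In both sexes 0 of these 5 were 2-fold apart between the ages, and their log2 ratios in females ran from -0.52 for Per1, a clock gene, to 0.49 for Ctc1, a telomere maintenance gene.

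**Figure D4:**
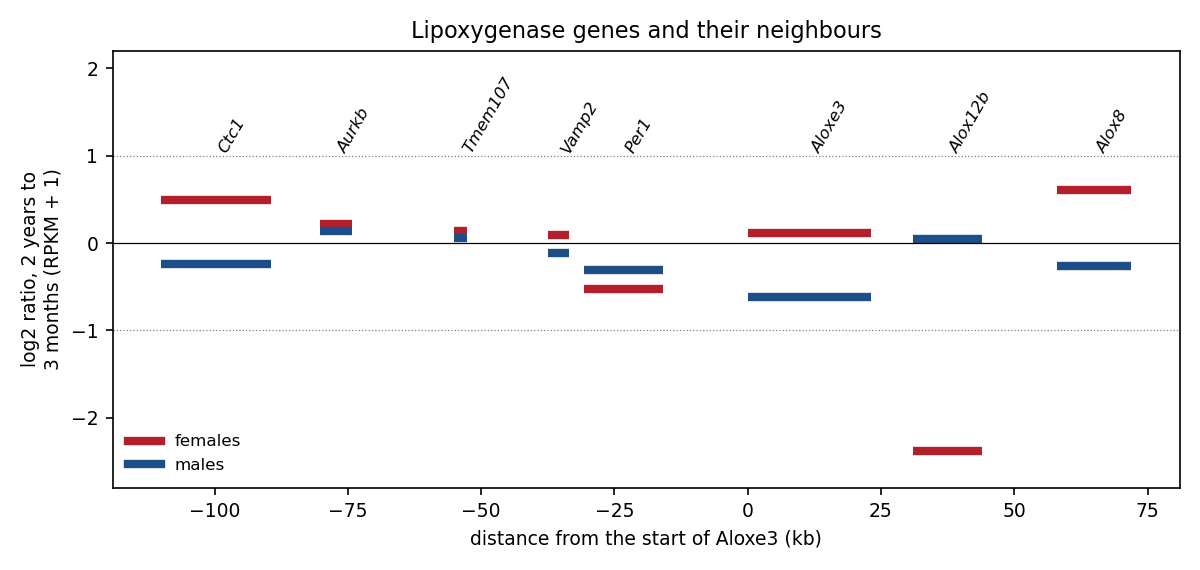
Log2 ratio of 2 years to 3 months (RPKM + 1) in females (red) and males (blue) for the 8 analysed protein-coding genes around the lipoxygenase cluster, each drawn over its length as distance in kb from the start of Aloxe3. Alox12b is at -2.38 in females while both neighbouring lipoxygenase genes are at 0.12 and 0.61, and dotted lines mark 2-fold.

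Between the sexes, Cyp4f39 stood out at 3 months and Alox12b and Abca12 at 2 years. These comparisons use the same libraries as the age comparisons, female and male, so they are not independent of them. At 3 months 7 of the 9 genes were higher in the male, with a median log2 ratio of 0.58 against 0.01 over all analysed genes. At least 2-fold higher was 1 gene, Cyp4f39 at 1.40, with a background of 0.928%, and 0 were 2-fold lower, with a background of 0.348%. Aloxe3 (0.84, though 2.03-fold in plain RPKM) and Smpd1 (0.77) came next. At 2 years 6 of the 9 were lower in the male, with a median of -0.36 against -0.07 over all. Alox12b was 2-fold higher (background 1.88%) and Abca12 at -1.15 was 2-fold lower (background 1.76%). Cyp4f39, at a log2 ratio of -0.998, lay just short of 2-fold on the log2(RPKM + 1) scale, while its plain RPKM was 2.00-fold lower in the male. The summed meibocyte markers were 2.38-fold higher in the young male than the young female library and 1.92-fold lower in the old male than the old female.

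Averaged over the sexes, no gene of the 9 passed a test for age, nor for sex averaged over the ages. The limma fit with age and sex as terms has 1 residual degree of freedom, which is the difference of the age ratio between the sexes. Its error, moderated over all genes, therefore measures that difference and not a spread of replicates. All 9 genes had age ratios of opposite sign in the sexes, which makes the average smaller and its SE larger. With limma, 0 of 12073 genes passed the threshold of 0.05 for age (353 at an unadjusted p under 0.05) and 0 for sex (63 at an unadjusted p under 0.05). The averaged age difference of Alox12b was -1.17 ± 0.63 (log2, SE, 2 old against 2 young libraries), and that of Cyp4f39 was 0.67 ± 0.69. Those of the other 7 lay between -0.25 and 0.45, with SE from 0.21 to 0.46. A single library decides the Alox12b value, and those of Cyp4f39 and Abca12 also moved with the library left out. Without the old female library the age difference of Alox12b, with age as the only term, was -0.02, and without the old male it was -2.32. Without the young male it was -1.23, and without the young female -1.10. For Cyp4f39 it was -0.03 without the young female and 0.17 without the old female. Without the old male that of Cyp4f39 was 1.17, and without the young male 1.37. For Abca12 it ran from -0.12 without the old female to 1.03 without the old male. In each of these fits 1 library is a whole age group, and the spread is that between the male and female libraries of the other age. Their p-values are therefore no test of age and are not given.

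The other genes of the pathway were taken from 4 lists, which were chosen with earlier results of these data known. In none of them was a gene 2-fold apart in the same direction in both sexes. The counts stand beside the background of 5.3% upward and 3.31% downward in females and 0.795% and 0.207% in males. Of 16 genes of de novo ceramide synthesis, 3 exceeded 2-fold upward and 0 downward in females, and 1 upward in males. Median log2 ratios were 0.37 for females and -0.03 for males, beside 0.08 and -0.01 over all analysed genes. Cers4, a ceramide synthase, had 20.2 RPKM in young males, 12.2 in young females, 17.8 in old males and 37.6 in old females. Thus the log2 ratio in females was 1.54 for Cers4, while it was -0.50 for Cers3. Fa2h, which puts a hydroxyl group on the fatty acid next to its acid end, had 6.16, 7.61 and 6.52 RPKM in the same first 3 libraries and 21.5 in the old female. Degs2, a desaturase and hydroxylase of the sphingoid base, had log2 ratios of 1.07 in females and -0.42 in males. Sptssb, a small subunit of serine palmitoyltransferase, had 82.9 RPKM in young males and 170.3 in old ones (log2 ratio 1.03), against -0.04 in females. Sptlc3, a large subunit of the same enzyme, had 0.48 in females and -0.47 in males.

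Partners of the acylceramide pathway included genes of very high level. Elovl4, the elongase that makes the longest acyl chains, had 1650 RPKM in young males, 791.1 in young females, 1145 in old males and 1867 in old females. Elovl1, which acts before it, had 1520, 690.6, 1176 and 2248 RPKM in the same order. Both stood lowest in the young female library and highest in the old female, as Cyp4f39 did. Of 13 analysed partners, 2 exceeded 2-fold upward and 1 downward in females and 0 in males, and the medians were 0.43 and -0.27. The lower gene was Sdr9c7, a dehydrogenase that acts on the lipid after the lipoxygenases. It had 9.56 RPKM in young males, 12.9 in young females, 8.42 in old males and 2.72 in old females. Like Alox12b it was low in the old female library only, with log2 ratios of -1.90 and -0.17. Lipm differed by -0.61 in males and 0.17 in females, and Acer1, a ceramidase of the epidermis, by -0.40 and -0.05.

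Of 17 analysed genes of sphingolipid processing and turnover, 1 exceeded 2-fold upward and 1 downward in females and 0 in males, shares in females near the background, and the medians were 0.21 and -0.14. Acer2, a ceramidase of the Golgi, had 31.4 RPKM in young males, 12.7 in young females, 19.3 in old males and 41.4 in old females, again in the order of Cyp4f39. Sgms2, a sphingomyelin synthase, was at 18.5 RPKM in young and 8.72 in old females, and at 8.94 and 11.8 in males. The ceramidase gene Acer3 differed by -0.75 in females and 0.36 in males. Sgpl1, the lyase that ends sphingolipid breakdown, differed by 0.17 and -0.46.

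Of 18 analysed paralogs of the 9 genes, 1 exceeded 2-fold upward and 0 downward in females, and 1 upward in males, the lipoxygenase gene Alox15 (2.16), while the medians were 0.09 and -0.18. Abca1, a cholesterol exporter, differed by 1.06 in females and -0.54 in males, close to the ratios of Abca12. Pnpla2 and Pnpla8, lipases of the family of Pnpla1, differed by 0.99 and 0.95 in females. In males Pnpla7 differed by -0.59 and Abca3, a lipid transporter, by -0.56. The other analysed Cyp4f genes, Cyp4f13, Cyp4f15, Cyp4f16 and Cyp4f17, lay between -0.16 and 0.01 in females, where Cyp4f39 had 1.87 (these 4 were named after their values were seen).

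**Figure D5:**
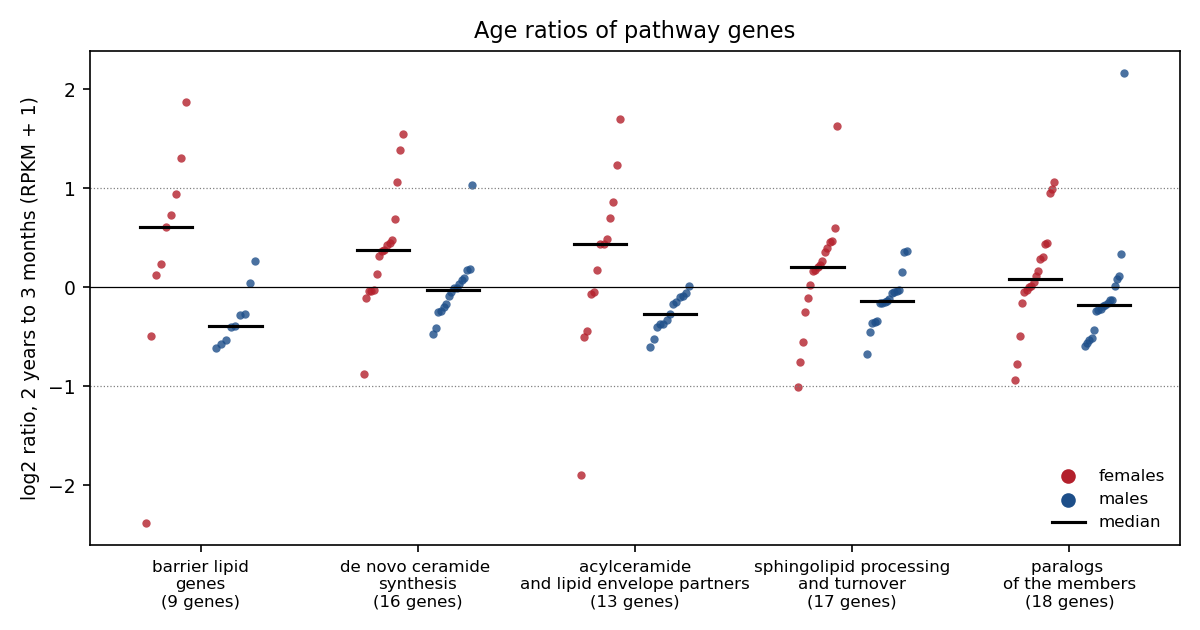
Log2 ratio of 2 years to 3 months (RPKM + 1) in females (red) and males (blue) for the 9 barrier lipid genes and the 4 pathway lists, with 1 point per analysed gene, a black line at the median and dotted lines at 2-fold. The female medians run from 0.09 to 0.61 and the male medians from -0.40 to -0.03.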

How the data were processed

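Libraries were made from frozen lower eyelid RNA for Illumina sequencing, per the labels' protocols. Per the submitters' processing notes, TopHat, Cufflinks and the mm10 build were used, with no version named. How reads were counted, and whether by strand, is not stated there.

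The RPKM values deposited by the authors list, in 1 table per library, only genes above a low limit. The second column, headed a raw count per the file headers, was read as base coverage (signal), since it sums to 3.16 to 3.91 gigabases. Read depth is therefore unknown, and no count test was run. The p-value and signed fold (score) columns deposited by the authors in their comparison tables, by file name from Cyber-T, are printed only as theirs. A total of 2 symbols on more than 1 row were left out. In the females' tables of the authors no value exceeds 113.8 RPKM, and Cyp4f39 is not listed there.

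Values were analysed as log2(RPKM + 1) for the 12073 genes listed in every library with a mean of at least 1 RPKM. A gene was called apart at 2-fold. Averaged effects came from limma 3.58.1 (R 4.3.3), modelling age plus sex, with intensity-trended moderated variances and Benjamini-Hochberg adjustment at 0.05. The fit was also run on simulated data with the same age effect in both sexes. That run does not show how the fit behaves where the sexes differ, as they do here. The 9 genes, the lists and the markers were chosen with earlier results of these data known. Named genes were the 9, per list the genes 2-fold apart the same way in both sexes or otherwise the 3 furthest apart in females and the 3 in males, and the 3 closest profiles to each of the 9, of which 1 is not reported here. Positions are those of the tables, with strands from GENCODE vM21, and motifs and upstream sequence are from RefSeq. Alternatives were pseudocounts of 0.1 and 5, no filter, a mean of at least 5 RPKM, median scaling, quantile normalization, and leaving out each library, which left residual degrees of freedom only with the other factor dropped. The planned comparison of proteins was not run.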

Additional observations from a re-analysis of the deposited data

Results flagged for a closer look

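A total of 5 genes had age ratios of opposite sign in females and males that were at least 1 apart on the log2 scale. With 1 library per group the difference was not tested. The difference, females minus males, was 2.40 for Cyp4f39, 1.70 for Abca12, 1.34 for Smpd1, 1.30 for Pnpla1 and -2.43 for Alox12b. For the first 4 the young female library was the lowest of the 4, and for all 5 the old female library was at an extreme. The summed meibocyte markers were 3.35-fold higher in the old than in the young female library and 1.36-fold lower in the old than in the young male, and the epidermal differentiation markers were 5.40-fold and 1.41-fold lower. Skeletal muscle markers were 6.03-fold and 2.75-fold higher and fibroblast markers 7.78-fold and 2.50-fold higher. The part of these cells in these differences was not tested.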

How the results depend on the processing

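The 36 log2 ratios of the 9 genes (4 comparisons each) kept their sign and their side of 2-fold without the filter and under median scaling. With a pseudocount of 0.1 there were 2 further ratios past 2-fold and with 5 there were 4 fewer. Under quantile normalization 1 more ratio was past 2-fold, and Aloxe3 in females turned to -0.02. With a pseudocount of 5 the counts 2-fold higher and lower in old females were 1 and 0 (Abca12 at 0.93, Alox12b at -0.98), and those of old males against old females 0 and 0. With 0.1 the count higher in young males was 2 and that lower in old males 2, and with quantile normalization the latter was 2. A mean of at least 5 RPKM leaves out Alox12b, Aloxe3 and Alox8, so the count lower in old females and that higher in old males were 0 by construction. The limma count of genes passing for age ran from 0 to 166 over the libraries left out, and for sex from 0 to 18. With 3 libraries only the tested factor could be fitted, so these are not of the same form as the fit of both factors. The highest counts came without the old male (age) and without the young female (sex), where the old female library is a whole group and libraries of the other factor stand in as replicates. Relative to the meibocyte markers, an alternative chosen after seeing the data, the ratio of old to young females lay below 1 for Cers3 (0.209), Aloxe3 (0.333), Ugcg (0.358), Pnpla1 (0.526), Alox8 (0.529), Smpd1 (0.578) and Abca12 (0.815), all above 2 per epidermal differentiation markers. Counts 2-fold higher in females became 2 for ceramide synthesis and 0 for paralogs with a pseudocount of 5 and under median scaling, and 2 for paralogs with 0.1. Counts 2-fold lower in females became 0 for turnover with 5, 1 for ceramide synthesis with 0.1 and 1 for paralogs under median scaling. The count higher in males became 0 for ceramide synthesis with 5 and under quantile normalization. The other list counts with age kept their value. Markers differ between libraries, and a ratio shows unequal change only. No paired analysis was possible because each group has 1 library and the labels give no replicate numbers. Depth limits the low genes, above all Alox12b in the old female library.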

Other observations

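Lipoxygenase genes outside the cluster had profiles of their own. Alox12e, an epidermal lipoxygenase of the mouse, was the most abundant, with 262.8 RPKM in young males, 339.0 in young females, 284.2 in old males and 176.9 in old females. Alox12, the platelet-type enzyme, which epidermis also makes, had 26.2, 36.1, 33.3 and 20.6 RPKM in the same order. Both were named after their values were seen, and both were lowest in the old female library. Alox15, an enzyme of macrophages and epithelia, had 15.5, 25.9, 72.6 and 18.1 RPKM, so that the old male library was the high one, with log2 ratios of 2.16 in males and -0.49 in females. Alox5, the enzyme that starts leukotriene synthesis, had 0.674 to 1.05 RPKM.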
